A study of Mus musculus with 13 samples.

Results

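Killing by lymphocytes runs through a small set of transcripts, and 8 of them were followed here in T cells from B16-F10 tumours: the granzymes Gzma, Gzmb, Gzmc, Gzmf, Gzmk and Gzmm, the perforin gene Prf1 and the Fas ligand gene Fasl. The members were the table's entries carrying these symbols, and all 8 were found among 12963 genes. B16-F10 is a mouse melanoma line, and it was implanted subcutaneously. The hosts were Foxp3 EGFP-DTR animals, in which EGFP and the human diphtheria toxin receptor are made from the endogenous Foxp3 locus, so every group shared this allele. Diphtheria toxin (DTx) therefore kills Treg cells in these mice, whereas PBS leaves them in place. There were 5 groups. Treg cells came only from mice given PBS (Treg PBS, 3 libraries). EGFP-negative conventional CD4 T cells (CD4 Tconv) came from mice given PBS (CD4 PBS, 2 libraries) or DTx (CD4 DTx, 3 libraries), as did CD8 T cells (CD8 PBS, 2 libraries, and CD8 DTx, 3 libraries). Mice were adults of both sexes, and Treg cells were absent from the DTx groups by design, so no Treg library of that treatment was compared.

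Granzymes are serine proteases stored in the granules of cytotoxic lymphocytes together with perforin. When a granule is released onto a target, perforin opens pores in its membrane and the granzymes enter, where granzyme B cleaves caspases and other proteins to start apoptosis. Fas ligand works outside this route: it sits on the lymphocyte surface and triggers the Fas receptor, a death receptor of the TNF receptor family, on the neighbouring cell. CD8 T cells and NK cells are the classic users of both routes, but activated CD4 T cells and Treg cells can also carry granzymes.

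The values were read counts divided by a size factor for each library, here called normalized reads. Between 15947556 and 34140486 reads were recovered per library, and 1 read was worth 0.661 to 1.37 normalized reads, so that a floor of 3 reads lay at 1.98 to 4.10 normalized reads. A gene was called where limma's adjusted p was under 0.05 and the log2 fold change of (normalized reads + 1) was beyond 2, that is 4-fold, over 12667 genes tested, and all 8 members were among those tested. The labelled cell types held: Foxp3 was at 1178 to 1896 in the Treg libraries and at 0 to 12.1 elsewhere, and Cd4 was at 0 to 413 in the CD8 libraries. Cd8a, a CD8 coreceptor chain, was at 23475 to 48329 in the CD8 libraries, but also at 103, 711 and 1302 in CD4 DTx replicates 1, 2 and 3, against 31.4 and 26.4 in the CD4 PBS libraries. The CD8 libraries also differed in NK cell markers, whose values are given with the CD8 results. In bulk libraries of sorted cells, fewer cells carrying a transcript and less of it per cell cannot be told apart.

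**Figure D1:**
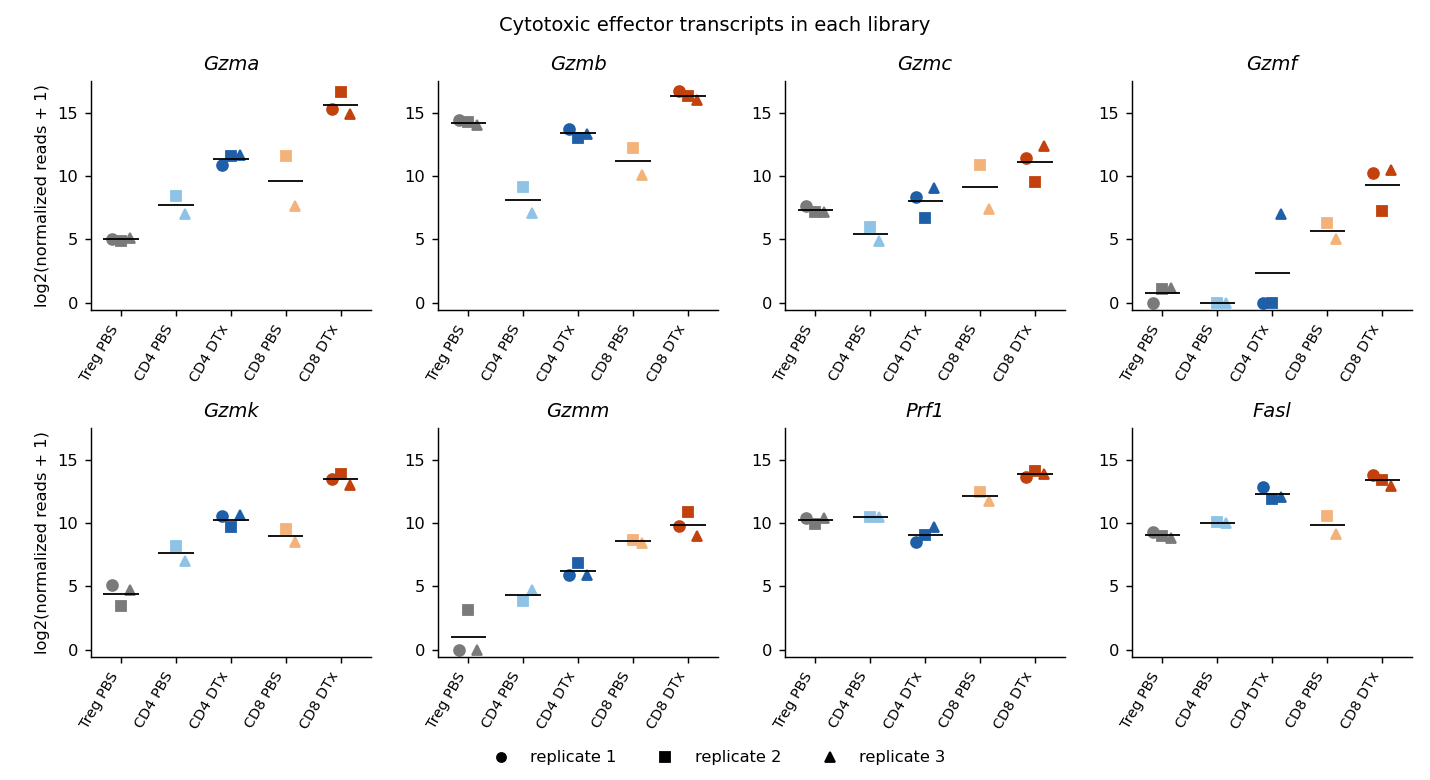
Each panel plots log2(normalized reads + 1) of 1 gene in the 13 libraries, with symbols for the replicate number and a line at the group mean. Every panel has its highest group mean in CD8 DTx, while Gzmb is second highest in Treg PBS and Prf1 is lowest in CD4 DTx.

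The first comparison asked how the transcripts of CD4 Tconv cells differed once Treg cells had been ablated. Gzma, Gzmb, Gzmk and Fasl rose, so 4 of 8 members were called higher where 5.06% of all genes tested were. Prf1 went the other way, and Gzmc, Gzmf and Gzmm did not pass limma's test. DESeq2 on the recovered reads called Gzmc (log2 fold change 2.86, adjusted p = 0.0120). It also called Gzmf (DESeq2 adjusted p = 5.13e-11), which was above 0 in CD4 DTx replicate 3 alone. The same DESeq2 fit called Gzmf in Treg PBS against CD4 PBS (adjusted p = 1.24e-05), where no library exceeded the floor. These DESeq2 calls of Gzmf were therefore not read as differences.

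Gzmb, the granzyme that cleaves caspases, was at 547 and 131 normalized reads in the CD4 PBS libraries and at 13630, 8324 and 10438 in the CD4 DTx libraries. The groups did not overlap, and the log2 fold change was 5.30 ± 0.60 (SE; limma adjusted p = 0.000188). Gzma, a tryptase that cuts after basic residues, was at 340 and 128 against 1901, 2983 and 3246, a log2 fold change of 3.65 ± 0.88 (limma adjusted p = 0.0166). Both DTx and PBS libraries of this gene kept apart, the lowest DTx value lying above the highest PBS value. Gzmk, a second tryptase, was at 290 and 129 against 1495, 815 and 1551, a log2 fold change of 2.67 ± 0.54 (limma adjusted p = 0.00632). Fasl was at 1066 and 1028 against 7380, 3760 and 4259, a log2 fold change of 2.23 ± 0.40 (limma adjusted p = 0.00293). CD4 DTx replicate 1 was the highest of its group for Gzmb and Fasl and the lowest for Gzma. Without CD4 PBS replicate 3 the count of members called was 2, since Gzma (adjusted p = 0.184) and Gzmk (adjusted p = 0.101) were then not called. Fasl was at 1.93 (adjusted p = 0.00908), short of 4-fold, without CD4 DTx replicate 1.

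Prf1 alone was lower after DTx in CD4 Tconv cells. It was at 1427 and 1404 normalized reads in the CD4 PBS libraries and at 360, 546 and 819 in the CD4 DTx libraries. All 3 DTx libraries lay under both PBS libraries, and the log2 fold change of -1.38 ± 0.33 passed the p threshold (limma adjusted p = 0.0157) but not the 4-fold rule. The adjusted p was up to 0.104 when 1 library was left out and 0.115 with the CD4 groups fitted alone. The ratio of Prf1 to Gzmb reads in a library went from 2.61 and 10.7 in CD4 PBS to 0.0264 to 0.0785 in CD4 DTx. The granzyme-to-perforin balance of these libraries was thus more than an order of magnitude apart, a description to which no test was applied.

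The other 3 granzymes were low in CD4 Tconv cells. Gzmm, a granzyme that cuts after methionine and leucine, gave 13.7 and 25.8 normalized reads in CD4 PBS against 58.9, 116 and 57.9 in CD4 DTx, with a log2 fold change of 1.91 and a 95% interval from -0.12 to 3.93. Gzmc was at 61.5 and 27.7 against 327, 102 and 532, with an interval from 0.41 to 4.85 and an adjusted p of 0.119 (limma). Gzmf was at 0 in both CD4 PBS libraries and in CD4 DTx replicates 1 and 2, and at 128 in CD4 DTx replicate 3. Its difference therefore rested on 1 library, and without it the estimate was 0.

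CD8 coreceptor transcripts differed between the CD4 DTx libraries, so these libraries were set against the CD8 DTx mean. Cd8b1, the other CD8 coreceptor chain, was at 0.437%, 2.68% and 3.86% of its CD8 DTx mean in CD4 DTx replicates 1, 2 and 3, and Cd8a at 0.256%, 1.77% and 3.24%. In CD4 PBS replicates 2 and 3, Cd8b1 was at 0.865% and 0.962% and Cd8a at 0.0781% and 0.0656%. Gzmb was at 16.3%, 9.97% and 12.5% of its CD8 DTx mean in CD4 DTx replicates 1, 2 and 3, and Fasl at 67.8%, 34.5% and 39.1%. Among the 3 CD4 DTx libraries, Gzmb and Fasl were thus highest in the one with the least Cd8a and Cd8b1. Gzma was at 3.37%, 5.28% and 5.75%, and Prf1 at 2.36%, 3.58% and 5.37%, both lowest in replicate 1. The Cd8b1 percentage of the CD8 DTx Prf1 mean came to 66.7, 409 and 588 normalized reads, beside measured Prf1 values of 360, 546 and 819. For Gzma it came to 247, 1515 and 2179 beside measured values of 1901, 2983 and 3246. With replicate 1 as the only CD4 DTx library, the log2 fold change against CD4 PBS was -1.97 for Prf1 (limma adjusted p = 0.00685) and 3.18 for Gzma (limma adjusted p = 0.119). The part of CD8 cells in the CD4 DTx values of Gzma and Prf1 was not tested beyond these values.

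**Figure D2:**
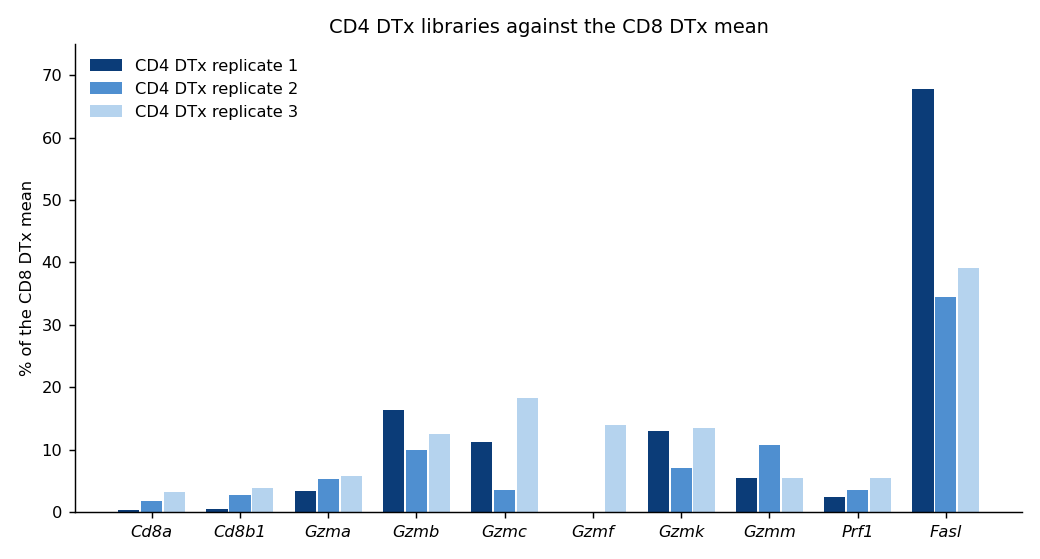
Bars give the level of each gene in the 3 CD4 DTx libraries as a percentage of its mean over the 3 CD8 DTx libraries, with Cd8a and Cd8b1 at the left. Cd8a and Cd8b1 stay at or under 3.86%, Gzmb reaches 16.3% and Fasl reaches 67.8%.

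In CD8 T cells the same 4 genes rose after DTx, 4 of 8 members where 3.87% of genes tested were called higher, and no member was lower. Gzma was at 2985 and 192 normalized reads in the CD8 PBS libraries and at 39350, 99846 and 30230 in the CD8 DTx libraries. The PBS libraries were far apart, yet both lay under every DTx library (log2 fold change 6.02 ± 0.88, limma adjusted p = 0.00171), although the Gzma call was lost with the CD8 groups fitted alone (adjusted p = 0.0844). Gzmb was at 4780 and 1072 against 104756, 80348 and 65338, a log2 fold change of 5.18 ± 0.60 (limma adjusted p = 0.000533). Gzmk was at 720 and 369 against 11457, 14836 and 8302, a log2 fold change of 4.44 ± 0.54 (limma adjusted p = 0.000648). Fasl was at 1505 and 576 against 14066, 10837 and 7772, a log2 fold change of 3.50 ± 0.40 (limma adjusted p = 0.000496). Replicate 2 was the higher PBS library for each of these 4 genes.

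Prf1 was higher after DTx in CD8 T cells, unlike in CD4 Tconv cells. It gave 5663 and 3488 in CD8 PBS against 12785, 17975 and 14992 in CD8 DTx. The groups did not overlap, and the log2 fold change of 1.76 ± 0.33 (limma adjusted p = 0.00562) was under the 4-fold rule. Without CD8 PBS replicate 3 its adjusted p was 0.115, and without CD8 PBS replicate 2 it passed both rules (2.11, adjusted p = 0.00911). Gzmm was at 412 and 349 against 872, 1854 and 493, with a 95% interval of the log2 fold change from -0.74 to 3.31. Gzmc was at 1894 and 163 against 2690, 739 and 5306, and these groups overlapped. Gzmf was at 79.0 and 31.99 against 1189, 149 and 1404, apart from each other but with an interval from -0.34 to 7.58. The Prf1 to Gzmb ratio was 1.18 and 3.25 in CD8 PBS and 0.122 to 0.229 in CD8 DTx.

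**Figure D3:**
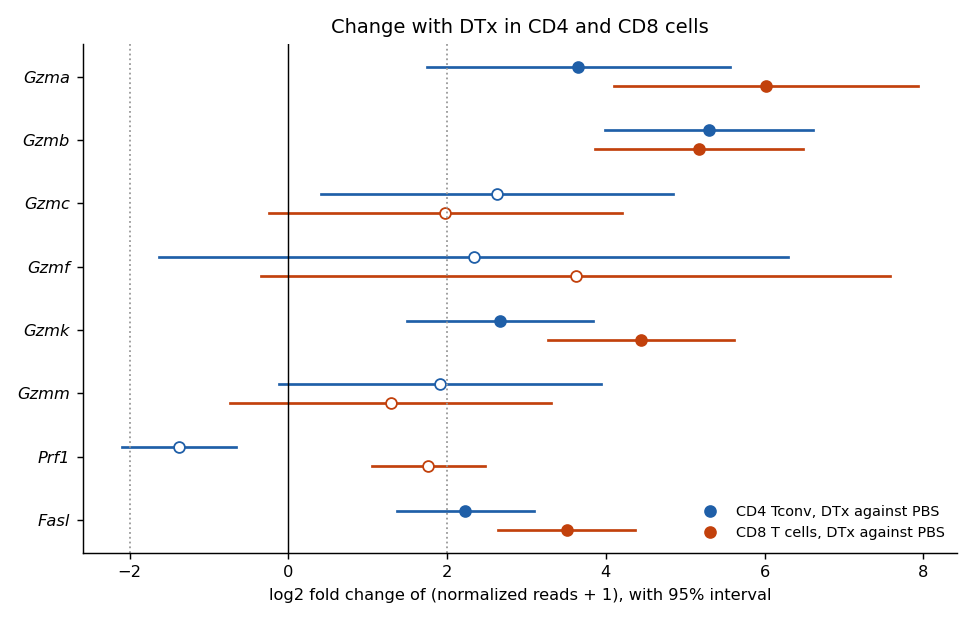
Points give the log2 fold change of (normalized reads + 1) with DTx for each gene in CD4 Tconv and CD8 T cells, with 95% intervals, and filled points passed both the p and the 4-fold rule (dotted lines). Gzma, Gzmb, Gzmk and Fasl are filled for both cell types, and Prf1 lies on opposite sides of 0.

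NK cell markers moved with some of the CD8 values. Of 9 listed NK cell markers, all in the table, Eomes is also made by CD8 T cells and was left out of the sum after its values were seen. The other 8 summed to 6281 and 584 normalized reads in CD8 PBS replicates 2 and 3, and to 1073, 10918 and 4200 in CD8 DTx replicates 1, 2 and 3, against 124 to 932 in the Treg and CD4 libraries. With Eomes the sums were 8085 and 2262, and 2226, 14380 and 6675. Ncr1, the NK receptor NKp46, was at 956 and 25.3 in the CD8 PBS libraries and at 17.6, 2147 and 599 in the CD8 DTx libraries, so no group was at 0. Gzma, Gzmk, Gzmm and Prf1 were highest in replicate 2 of both treatments, the CD8 library with the highest NK sum. In CD8 PBS, Gzmb, Gzmc, Gzmf and Fasl were also higher in replicate 2. Gzmb was highest in CD8 DTx replicate 1, which had the lowest NK sum of its group. Mcpt8, a protease of basophils, was also at 7313 in CD8 DTx replicate 2 and at 828 in replicate 3, against 8.31 in replicate 1. An alternative chosen after the values were seen kept CD8 DTx replicate 1 and CD8 PBS replicate 3 as the only CD8 libraries. The log2 fold changes after DTx were then 7.67 for Gzma, 6.61 for Gzmb, 4.95 for Gzmk and 4.61 for Fasl. In that fit each lone library was assumed to vary like the other groups. CD8 PBS replicate 3 was the lower PBS library for each of these 4 genes, so keeping it alone made these differences larger. The part of NK cells in the CD8 values was not tested.

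**Figure D4:**
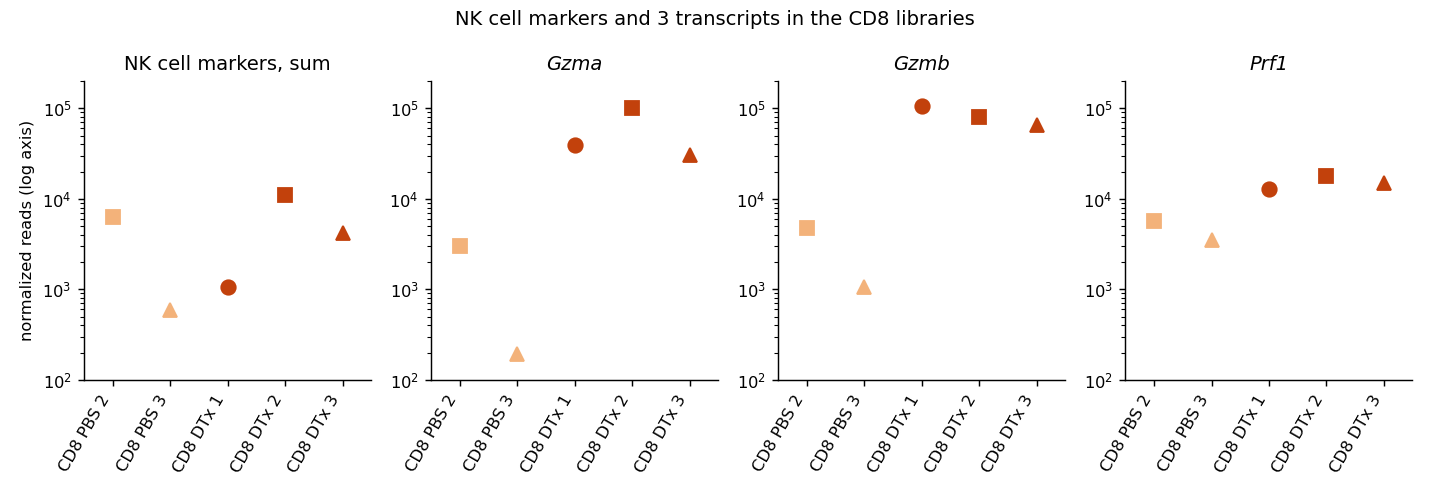
The sum of 8 NK cell markers (Eomes left out), Gzma, Gzmb and Prf1 are shown in the 5 CD8 libraries as normalized reads on a log axis. CD8 DTx replicate 1 and CD8 PBS replicate 3 have the lowest NK sum of their groups, 1073 and 584, and Gzmb is at 104756 in the first and 1072 in the second.

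Whether the DTx effect itself differed between the cell types was tested by an interaction term. Prf1 was the single member called, 1 of 8, where 0.0237% of genes tested were called lower: its DTx effect in CD4 Tconv cells minus that in CD8 T cells was -3.14 ± 0.46 on the log2 scale (limma adjusted p = 0.0447), and its p ranked 5 of 12667. This call was lost under edgeR on the recovered reads (adjusted p = 0.0618), with the 4 compared groups fitted alone (adjusted p = 0.128), without a filter on low values (adjusted p = 0.0512), with the lone CD8 libraries above (adjusted p = 0.477), and when any of 7 libraries was left out, namely CD8 DTx replicate 1, 2 or 3, CD4 DTx replicate 2, CD8 PBS replicate 3, or CD4 PBS replicate 2 or 3, while the estimate stayed between -3.49 and -2.79 over all left-out libraries. For Gzmb the difference between the effects was 0.12, with a 95% interval from -1.73 to 1.98. The corresponding intervals were -5.07 to 0.34 for Gzma, -3.43 to -0.12 for Gzmk and -2.50 to -0.06 for Fasl, all with an adjusted p of 1. The same DTx effect in both cell types was therefore not shown for these genes.

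The promoters of Gzmb and Prf1 are shown because these neighbours in function went in opposite directions in CD4 Tconv cells. Both are RefSeq windows of build GRCm38.p6, from 250 bases before to 50 bases after the start, Gzmb at chr14:56262285-56262584 on the minus strand and Prf1 at chr10:61297586-61297885 on the plus strand, and all 8 members had such a window. Capitals mark matches, on either strand, to the core letters of 6 factor families: TGTGGT for RUNX, TGANTCA for AP-1, TGACGT for the CRE core, AGGTGT for T-box, TTCNNNGAA for STAT and TGGAAA for NFAT.
Gzmb: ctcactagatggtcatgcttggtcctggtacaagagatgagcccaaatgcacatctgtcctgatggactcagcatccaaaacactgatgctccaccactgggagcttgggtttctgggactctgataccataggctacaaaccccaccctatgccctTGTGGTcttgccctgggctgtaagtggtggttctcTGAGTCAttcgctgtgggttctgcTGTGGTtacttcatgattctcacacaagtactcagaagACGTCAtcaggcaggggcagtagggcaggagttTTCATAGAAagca
Prf1: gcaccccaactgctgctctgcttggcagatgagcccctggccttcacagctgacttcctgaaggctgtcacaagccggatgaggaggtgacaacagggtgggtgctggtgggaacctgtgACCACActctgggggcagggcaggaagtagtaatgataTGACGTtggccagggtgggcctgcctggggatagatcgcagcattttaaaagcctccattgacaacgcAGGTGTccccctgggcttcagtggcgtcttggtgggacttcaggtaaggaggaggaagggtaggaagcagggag
Gzmb held 2 RUNX matches, 1 AP-1 match, 1 CRE core and 1 STAT match. Prf1 held 1 RUNX, 1 CRE core and 1 T-box match. Among 32851 promoter windows of this length, 16.8% held a RUNX match, 7.81% an AP-1 match, 7.51% a CRE core, 13.7% a T-box match, 8.30% a STAT match and 21.4% an NFAT match. The Fasl window held none of these letters, and the Gzma window held 1 RUNX, 1 T-box and 1 NFAT match. These matches describe letters, and no binding was measured.

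Treg cells had a profile of their own, with much Gzmb and little of most other granzymes. The Treg libraries held 21686, 19203 and 16534 normalized reads of Gzmb, and the gene was called higher both than in CD4 PBS (log2 fold change 6.15 ± 0.60, limma adjusted p = 4.63e-05) and than in CD8 PBS (3.07 ± 0.60, limma adjusted p = 0.00425). It was the only member called higher in each comparison, where 7.85% and 6.56% of genes tested were. The 3 tightly grouped Treg values set it apart from the PBS CD4 and CD8 libraries, of which the highest was 4780. Without CD8 PBS replicate 3 the Gzmb difference from CD8 PBS was 1.99 (adjusted p = 0.0788).

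Gzma, Gzmk and Gzmm were lower in Treg cells, 3 of 8 members against CD4 PBS and against CD8 PBS, where 2.35% and 2.85% of genes tested were called lower. Gzma was at 32.2, 28.2 and 34.1 in the Treg libraries, under CD4 PBS (log2 fold change -2.70, limma adjusted p = 0.0479) and further under CD8 PBS (-4.55, limma adjusted p = 0.00385). Gzmk was at 33.0, 9.75 and 24.7 (log2 fold changes -3.21 and -4.61). Gzmm was at 0 in Treg replicates 1 and 3 and at 7.58 in replicate 2 (log2 fold changes -3.27 and -7.54). The Gzma and Gzmm calls against CD4 PBS were lost with a pseudocount of 10 (adjusted p = 0.0599 and 0.125), and that of Gzma also without a filter on low values (adjusted p = 0.0506) and when any one of the compared libraries was left out (adjusted p = 0.0737 to 0.304). That of Gzmm was lost without Treg replicate 1 or 3 or either CD4 PBS library (adjusted p = 0.0652 to 0.175), under edgeR (adjusted p = 0.0606) and with the compared groups alone (adjusted p = 0.113). Against CD8 PBS, the Gzma call was lost with the compared groups alone (adjusted p = 0.0537). Gzmf did not exceed its floor in any Treg library or in either CD4 PBS library. Prf1 was at 1361, 947 and 1370 and Fasl at 630, 503 and 458, and neither was called against CD4 PBS or CD8 PBS, though Prf1 was lower than in CD8 PBS, short of 4-fold (log2 fold change -1.88, limma adjusted p = 0.00217). Without CD8 PBS replicate 3 that Prf1 difference passed both rules (-2.23, adjusted p = 0.00840).

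Against the Treg libraries, the CD4 DTx libraries had more of 4 members, where 1.56% of genes tested were called higher. These were Gzma (log2 fold change 6.35), Gzmk (5.87), Gzmm (5.18) and Fasl (3.22), with limma adjusted p from 6.34e-05 to 0.00271. The Gzmm value depends on the pseudocount, since Gzmm was at 0 in 2 of 3 Treg libraries, and it ran from 2.79 to 6.22 over the alternatives. Gzmb was not called: its log2 difference was -0.85, with an interval from -2.02 to 0.33, although each Treg value lay above each CD4 DTx value. Prf1 was also lower in CD4 DTx than in Treg (-1.15, limma adjusted p = 0.0325), short of 4-fold. The CD8 DTx libraries had more of all 8 members than the Treg libraries, where 2.14% of genes tested were called higher. The Gzma difference was 10.6 on the log2 scale, and Gzmf was at least 294-fold higher against a floor of 3 reads per library. With CD8 DTx replicate 1 as the only CD8 DTx library 5 of the 8 were called, and Gzmb (2.46, adjusted p = 0.118), Gzmc and Gzmf were not. The Gzmb call there was also lost without any one of CD8 DTx replicates 1 and 2 and the 3 Treg libraries (adjusted p = 0.0687 to 0.0979), and the Gzmc call without any one of CD8 DTx replicates 1 and 3 and the 3 Treg libraries (adjusted p = 0.0543 to 0.0789).

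The CD8 and CD4 libraries were also compared directly. In PBS, Gzmb alone was called higher in CD8 than in CD4 cells (log2 fold change 3.08, limma adjusted p = 0.0497). That was 1 of 8 members, where 0.742% of genes tested were called higher. This call was lost under 5 alternatives that kept all libraries or tested those groups alone. It was also lost without CD8 PBS replicate 2 (log2 fold change 1.998) or CD4 PBS replicate 3 (2.05), with up to 4.15 in the other left-out fits. After DTx, Gzma, Gzmb, Gzmk and Prf1 were called higher in CD8 than in CD4 cells, 4 of 8 members where 0.576% of genes tested were. Prf1 had the smallest p of all 12667 genes tested in that comparison, with a log2 fold change of 4.79 ± 0.29 (limma adjusted p = 1.54e-05). The Gzma difference was 4.22, the Gzmb difference 2.95 and the Gzmk difference 3.18 on the log2 scale (limma adjusted p = 0.0227, 0.0211 and 0.00727). Fasl differed least, at 1.11 (limma adjusted p = 0.187, interval 0.34 to 1.88), with 14066, 10837 and 7772 in CD8 DTx against 7380, 3760 and 4259 in CD4 DTx. Same-numbered CD4 DTx and CD8 DTx libraries deviated together, and with the replicate number as a block 6 members were called, Gzmf (adjusted p = 0.0385) and Gzmm (adjusted p = 0.0255) in addition. The Gzma call was lost without any one of the compared libraries other than CD8 DTx replicate 3 (adjusted p = 0.0584 to 0.0936), and the Gzmb call without CD8 DTx replicate 1 or 2 or CD4 DTx replicate 2 or 3 (adjusted p = 0.0628 to 0.0859). With CD4 DTx replicate 1 as the only CD4 DTx library 2 members were called, Prf1 and Gzmf, and with CD8 DTx replicate 1 as the only CD8 DTx library 1 was, Prf1 (adjusted p = 0.0170).

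The order of the group means summarises the 8 genes. For Gzma and Gzmk, CD8 DTx was followed by CD4 DTx, CD8 PBS, CD4 PBS and Treg PBS, and for Gzma the CD4 DTx and CD8 PBS ranges overlapped, as did CD8 PBS and CD4 PBS. For Gzmb, Treg PBS took the second place, above CD4 DTx, CD8 PBS and CD4 PBS, and no neighbouring ranges overlapped. For Prf1 the order was CD8 DTx, CD8 PBS, CD4 PBS, Treg PBS and CD4 DTx, although CD4 PBS and Treg PBS differed by a log2 fold change of only -0.23 (interval -0.94 to 0.49). For Gzmm it was CD8 DTx, CD8 PBS, CD4 DTx, CD4 PBS and Treg PBS. For Fasl, both DTx groups came first, and CD4 PBS and CD8 PBS overlapped, with means of 1047 and 1041.

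**Figure D5:**
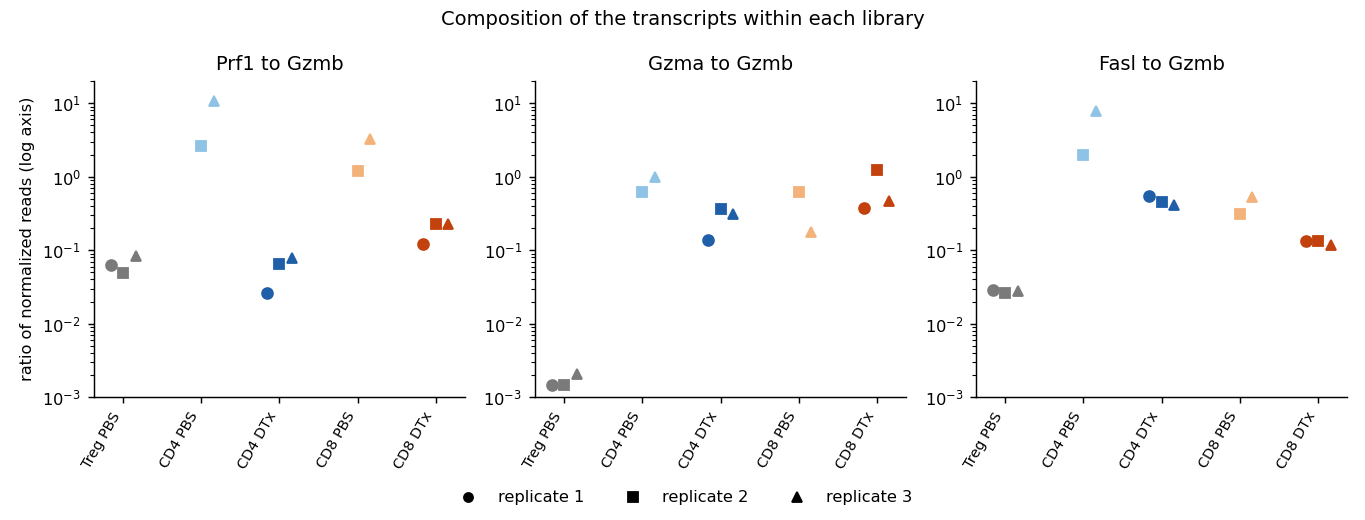
Each panel gives the ratio of 2 transcripts' normalized reads within a library, on a log axis, for the 13 libraries. The Prf1 to Gzmb ratio is above 1 in the CD4 and CD8 PBS libraries and under 0.23 in all Treg and DTx libraries, and Gzma to Gzmb is lowest in Treg, at 0.00147 to 0.00206.

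To set the genes beside each other, normalized reads were divided by the exon length of the gene in GENCODE, which was found for 97.7% of the table's genes. In CD8 DTx, Gzmb was at 58134 normalized reads per kb and Gzma at 56138, ranks 7 and 8 of all genes with a length. The Gzma mean rested on CD8 DTx replicate 2, and without it was 34582 per kb. Gzmk followed at 8302, Prf1 at 5902, Fasl at 5623 and Gzmc at 3257, while Gzmf was at 995 and Gzmm at 729. In CD4 DTx, Gzmb at 7519 per kb stood above Gzma (2694), Fasl (2650), Gzmk (927) and Prf1 (223). In Treg cells, Gzmb was at 13329 per kb, rank 61, against 474 for Prf1 and 31.3 for Gzma. The composition thus differed: Fasl per length was close to Gzma in CD4 DTx and far under it in CD8 DTx.

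Gzmb, Gzmc and Gzmf lie next to each other on chromosome 14 in a granzyme cluster with Gzmd, Gzme, Gzmg and Gzmn, while Gzma and Gzmk are neighbours on chromosome 13, Gzmm and Prf1 lie apart on chromosome 10, and Fasl is on chromosome 1. Within the cluster, replicate 3 of the DTx groups stood out: Gzmf was at 128 in CD4 DTx replicate 3 and 0 in the others, Gzmd at 94.8 against 0 and 0, and Gzmg at 147 against 0 and 0, whereas Gzme was at 27.1, 0 and 19.8. In CD8 DTx replicates 1, 2 and 3, Gzmd was at 85.9, 125 and 985, Gzmg at 1.85, 37.6 and 388, and Gzmc at 2690, 739 and 5306. Gzmb, in the same cluster, was lowest in CD8 DTx replicate 3. Gzmn was not analysed here. Sequence sharing limits these genes unequally: 21.9% of the 50-base windows of the Gzmd transcripts also occur in another granzyme, against 20.6% for Gzme, 19.8% for Gzmg, 7.36% for Gzmf, 4.14% for Gzmc and 0% for Gzma, Gzmb, Gzmk and Gzmm. Only uniquely mapped reads were kept, and how many reads of these genes were lost for that reason was not measured, so the levels of Gzmd, Gzme and Gzmg are uncertain.
The windows of Gzmc (chr14:56234608-56234907, minus strand) and Gzmf (chr14:56211358-56211657, minus strand) are shown for the resemblance of these adjacent genes, with capitals as above.
Gzmc: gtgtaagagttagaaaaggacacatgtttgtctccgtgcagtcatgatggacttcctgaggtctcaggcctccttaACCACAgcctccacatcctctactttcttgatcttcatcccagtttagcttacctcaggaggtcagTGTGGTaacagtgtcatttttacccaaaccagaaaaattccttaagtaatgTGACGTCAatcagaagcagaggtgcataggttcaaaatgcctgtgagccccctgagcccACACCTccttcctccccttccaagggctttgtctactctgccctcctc
Gzmf: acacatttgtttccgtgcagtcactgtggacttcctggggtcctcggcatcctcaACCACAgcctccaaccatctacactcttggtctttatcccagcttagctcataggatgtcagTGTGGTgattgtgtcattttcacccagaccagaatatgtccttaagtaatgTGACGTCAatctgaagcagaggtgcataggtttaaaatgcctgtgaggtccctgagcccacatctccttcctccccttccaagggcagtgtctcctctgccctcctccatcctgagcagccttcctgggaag
Each held 2 RUNX matches and a pair of overlapping CRE core matches on opposite strands, whereas Gzmb held 1 CRE core match. Gzmc also held 1 T-box match.

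The genes around this machinery were taken from lists chosen with earlier results of these data known. Of 6 serpin genes listed as inhibitors of granzymes, 4 were called higher after DTx in CD4 Tconv cells and the same 4 in CD8 T cells, where 5.06% and 3.87% of all genes tested were. The median log2 fold changes of the 6 were 2.75 and 2.83, against -0.04 and -0.03 over all genes. Whether each of the 6 inhibits a granzyme was not tested. Serpinb9, which inhibits granzyme B, gave 1271 and 771 in CD4 PBS against 8783, 5313 and 5755 in CD4 DTx (log2 fold change 2.70, limma adjusted p = 0.00286). In CD8 cells Serpinb9 was at 3545 and 969 against 15992, 15741 and 11102 (2.93, limma adjusted p = 0.00297). Serpinb6b rose by 2.74 and 2.57, Serpina3g by 2.76 and 2.73, and Serpinb1a by 4.08 and 3.70 on the log2 scale in CD4 and CD8 cells. In Treg cells Serpina3g was the only gene of this list called higher than in both PBS groups, at 38708, 21265 and 16082. Its action on granzymes was not tested.

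Of 6 genes for the granule matrix and granzyme maturation, 3 were called higher in CD4 DTx against CD4 PBS, beside 5.06% of all genes tested, Srgn (the proteoglycan serglycin, log2 fold change 2.002), Ctsw (cathepsin W, 2.06) and Cst7 (cystatin F, which inhibits granule cathepsins, 2.65). In CD8 cells their log2 fold changes were 1.39, 0.87 and 1.26, short of 4-fold, and the differences between the effects were not called (adjusted p = 0.693 to 1). Of 12 tested genes of the granule membrane and exocytosis, 2 were called in CD4 cells, the granule membrane protein gene Nkg7 (4.11) and the syntaxin Stx11 (2.57), and 1 in CD8 cells, Stx11 (2.35), beside 5.06% and 3.87% of all genes called higher. Nkg7 gave 2273 and 1121 in CD4 PBS against 40445, 21458 and 23986 in CD4 DTx. Among 5 tested other death ligands, Tnfsf14, the TNF family ligand LIGHT, was the 1 called, in both cell types (2.38 and 2.36), with the same shares of all genes.

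On the receiving side, Fas itself gave 989 and 1389 in CD4 PBS against 739, 620 and 475 in CD4 DTx. Of 14 transcription factors of cytotoxic T cells, 4 were called higher after DTx in CD4 cells and 5 in CD8 cells, where 5.06% and 3.87% of all genes tested were. Tbx21, which encodes T-bet, rose by 3.24 and 2.57, Bhlhe40 by 3.78 and 3.30, and Id2 by 2.84 and 2.70 on the log2 scale. Zfp683, which encodes Hobit, was called in CD4 cells (3.27), and Prdm1 (3.14), which encodes Blimp-1, and Zeb2 (4.29) in CD8 cells. Zeb2 was at 262 and 6.66 in CD8 PBS replicates 2 and 3, against 530, 1037 and 1229 in CD8 DTx. Prdm1 was at 719 and 119 against 2298, 2535 and 2953, so the PBS libraries were far apart for both. Eomes, a T-box factor of CD8 T cells and NK cells, was at 1154 to 3462 in CD8 DTx and at 131 to 291 in CD4 DTx. Prdm1 was highest in Treg cells, at 5429, 7989 and 8225.

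The genes whose levels followed each member most closely over the 13 libraries are given as a description, by the mean absolute difference of mean-centred log2 levels. Among the nearest to Gzmb were Havcr2, which encodes Tim-3 (0.54), and Ube2c (0.72). The nearest to Fasl were Nqo2 (0.44), Il18rap (0.57) and Palm (0.62). The nearest to both Gzma and Gzmk were the gamma chain segments Trgv2 (0.82 and 0.78) and Tcrg-C2 (0.91 and 0.94). Markers of gamma delta T cells, 4 of 5 in the table, summed to 23.1 to 64.2 normalized reads in CD4 PBS, 275 to 402 in CD4 DTx, 793 to 2711 in CD8 PBS, 1516 to 2984 in CD8 DTx and 25.9 to 57.4 in Treg PBS. Of the 3 tested, 1 was called higher with DTx, Trgv2, in CD4 and in CD8 cells (log2 fold changes 3.94 and 3.68). The markers did not move together in CD8 cells, where the median log2 fold change of the 3 was -0.64. Cd163l1 was at 1694 and 646 in CD8 PBS against 132, 151 and 380 in CD8 DTx. The part of gamma delta T cells in the Gzma and Gzmk results was not tested. Prf1 was closest to Klra5 (0.75), Fcer1g (0.76) and Tm6sf1 (0.84), of which Fcer1g is an NK cell marker in the list above. Gzmm was closest to Klrd1 (0.73), Ly6c2 and Lcn4, Gzmc to Klrc3 (0.93), Ccl5 and Tmprss6, and Gzmf to its cluster neighbours Gzmd (0.87) and Gzme and to Pald1. Among the members, Gzma and Gzmk were the nearest pair (0.91), and Gzmb and Gzmf the farthest (3.14).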

How the data were processed

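T cells were sorted from tumours, their RNA amplified from low input and sequenced. Per the labels and the methods of the study, the authors trimmed reads with cutadapt, checked them with FastQC and aligned them to mouse NCBIM37 (mm9) with hisat2, keeping uniquely mapped reads. The deposited signal values are read counts scaled for library size. The counting tool, strand setting and tool versions are not given in the sources used here. All values (100%) came out as whole reads after division by the value of 1 read, within a tolerance of 0.01. The 13 libraries were grouped by title. Separate animals are not named for each library, so p-values measure the spread between these libraries. The paper describes biological replicates taken on independent days, and whether a replicate number stands for a day is not stated. CD4 PBS and CD8 PBS have no replicate 1, so that number entered the DTx against PBS comparisons on the DTx side only.

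Values were tested as log2(value + 1) with limma 3.58.1 (R 4.3.3, trended empirical Bayes) in 1 fit over all libraries, for genes that reached 10 in 2 or more libraries, and p-values were adjusted by Benjamini-Hochberg over 12667 genes. A fold on this scale understates changes of low genes. Alternatives were other pseudocounts, filters and scalings, edgeR 4.0.16 and DESeq2 1.42.0 on recovered reads, a replicate block and leaving out libraries. Intervals are 95% and two-sided. The limma step was tested on simulated data. Same-numbered CD4 DTx and CD8 DTx libraries deviated together (r = 0.36, 0.21 and 0.59 for numbers 1, 2 and 3). In the other same-numbered comparisons r ran from -0.31 (CD4 DTx and CD4 PBS, number 3) to 0.30 (CD8 DTx and Treg PBS, number 3). Whether numbers pair libraries was not tested, and the main fit had no replicate block. Named genes were the 8 members, listed genes called in the comparison described or chosen for their level, and the 3 genes nearest each member, and some results under this rule are not reported here. Members and lists were chosen with earlier results of these data known. Promoters and gene order are from RefSeq GRCm38.p6, and exon lengths and shared windows from GENCODE transcripts of GRCm38, not the authors' build.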

Additional observations from a re-analysis of the deposited data

Results flagged for a closer look

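The DTx effect on Prf1 differed between CD4 Tconv and CD8 T cells by the test of the difference itself: the effect in CD4 cells minus that in CD8 cells was -3.14 on the log2 scale (limma adjusted p = 0.0447). The call was lost in 11 of 24 alternatives, among them edgeR (adjusted p = 0.0618), no filter on low values (0.0512), the compared groups alone (0.128) and CD8 DTx replicate 1 with CD8 PBS replicate 3 as the only CD8 libraries (0.477). Prf1 was lower after DTx in 3 of 3 CD4 libraries and higher in 3 of 3 CD8 libraries than every PBS library of the same cell type. Groups of 2 or 3 libraries are too small for a check of single libraries that stand apart.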

How the results depend on the processing

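Of 72 log2 values (8 members in 9 comparisons), 35 kept their direction and their call in all alternatives run. In at least 1 alternative, 7 reversed or fell to 0. The counts of members called after DTx against PBS were 4 in CD4 cells (2 to 4 when 1 library was left out) and 4 in CD8 cells (4 to 5). The replicate block changed no other call than the 6 members called in CD8 DTx against CD4 DTx, apart from Gzmm (adjusted p = 0.0462) in CD8 PBS against CD4 PBS, which made 2. For the Prf1 interaction, 0 members were called without a filter, with edgeR, with the compared groups alone and with CD8 DTx replicate 1 and CD8 PBS replicate 3 alone, 2 with DESeq2, and 0 to 1 when 1 library was left out. Treg PBS against CD4 PBS gave 2 with a pseudocount of 10 and 2 to 3 when 1 library was left out. CD8 PBS against CD4 PBS gave 0 with a pseudocount of 0.5, no filter, TMM, edgeR, the compared groups alone and the lone CD8 libraries, 2 with a pseudocount of 10, quantile normalization and the replicate block, 4 with DESeq2, and 0 to 3 with 1 library left out. CD8 DTx against CD4 DTx gave 2 with CD4 DTx replicate 1 alone, 1 with the lone CD8 library, and 2 to 4 with 1 left out. CD8 DTx against Treg PBS gave 5 with the lone CD8 library. The DESeq2 counts for the interaction and for CD8 PBS against CD4 PBS include Gzmf, which was at 0 in both CD4 PBS libraries. The cause of these changes was not tested, except that fewer libraries were used where libraries were left out.

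Some values reversed or fell to 0. Without CD4 DTx replicate 3 or with replicate 1 alone, Gzmf was 0 in CD4 DTx against CD4 PBS and -0.727 against Treg PBS. Its highest values in the other left-out fits were 3.50 and 2.78. In the interaction, Gzmb ran from -0.955 to -0.0407 in the left-out fits that reversed it (-0.0602 and -0.905 between, and up to 1.20 in the others) and to -1.31 with the lone CD8 libraries, and Gzmc was -0.132, -1.12 and -1.41 (up to 2.42). Gzmf, at 0 in both CD4 PBS libraries, was 4.29 with edgeR and 17.1 with DESeq2 in the interaction. In CD8 PBS against CD4 PBS, Gzma was -0.122 without CD8 PBS replicate 2 (3.83 without replicate 3), and Fasl 0.00426 with DESeq2 and 0.524 without CD8 PBS replicate 3 (-0.861 without replicate 2).

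Over all genes, the calls after DTx were 868 in CD4 cells and 692 in CD8 cells, 1612 and 1377 without the fold rule, 496 without CD4 PBS replicate 3, and 153 without CD8 PBS replicate 3 and 201 with the compared groups alone in CD8 cells (346 with the lone CD8 libraries), and edgeR on the recovered reads called 712 and 528. The interaction gave 6, with 73 by DESeq2, 97 with CD4 DTx replicate 1 alone, 1 with the lone CD8 libraries and 0 to 14 with 1 left out. Treg PBS gave 1292 against CD4 PBS (2581 without the fold rule, 840 without CD4 PBS replicate 3) and 1192 against CD8 PBS (2367, and 544 without CD8 PBS replicate 3). CD8 PBS against CD4 PBS gave 115 (230 by DESeq2, 34 alone, 33 lone CD8, 57 without CD8 PBS replicate 2). CD4 DTx against Treg PBS gave 508 (323 by edgeR, 1002 without the fold rule), CD8 DTx against Treg PBS 624 (1089, and 230 lone CD8), and CD8 DTx against CD4 DTx 127 (76 by edgeR, 234 by DESeq2, 59 alone, 208 without the fold rule, 335 with CD4 DTx replicate 1 alone, 10 lone CD8, 51 to 73 with CD8 DTx replicate 1 or 2 or CD4 DTx replicate 2 or 3 left out). Quantile normalization moved the higher and lower calls from 994 and 298 to 906 and 512 for Treg PBS against CD4 PBS, from 198 and 310 to 257 and 257 for CD4 DTx against Treg PBS, and from 3 and 3 to 6 and 3 for the interaction.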
